A study of Mus musculus with 6 samples.

Results

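The Twist, Snail, Zeb, Prrx and Hmga genes were examined in cells from mouse skin, labelled as endothelial cells (ECs), that were kept in normal or high glucose. The cell type is that of the labels, and its markers are given below. Members were taken by name, and the symbols Twist1, Twist2, Snai1, Snai2, Zeb1, Zeb2, Prrx1, Prrx2, Hmga1 and Hmga2 each matched 1 of the 55487 gene identifiers in the count table, so that 10 genes are described. The cells came from C57BL/6 skin, and between 4 and 6 mice aged 2 to 3 months served for their isolation. They were enriched with beads against the surface protein CD31 and used after a few passages in culture. The normal-glucose group held 3 samples in 5 mmol/L glucose and the high-glucose group held 3 samples in 20 mmol/L glucose, both for 48 hours and with no other agent or allele. PolyA RNA was sequenced in bulk to ask how a glucose level that mimics hyperglycemia alters gene expression in these cells. The paper's figure legends give n = 3 per group of mice for this sequencing. The labels do not say whether the samples of a group came from separate cultures or animals. The P values therefore measure the spread between these 6 samples, which may be technical.

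Twist proteins are basic helix-loop-helix (bHLH) factors that pair with E proteins, Snail and Zeb proteins are zinc-finger repressors, and all of them read short E-box sequences in DNA. Together with the paired-type homeobox factors Prrx1 and Prrx2 they are known for driving or marking the mesenchymal state, in which epithelial or endothelial cells lose their junctions and take on features of fibroblasts. Hmga proteins are small architectural chromatin proteins that bind the minor groove of AT-rich DNA through AT-hooks, are abundant in embryonic and dividing cells, and act with the transition factors in several cell types.

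Between 120192466 and 146881356 counts were assigned to genes in each sample. Levels are given as CPM, the counts scaled to a common library total after normalization, and the floor set by 3 counts was 0.0204 to 0.0250 CPM, which covers counting error only. Several defining endothelial markers were low. Pecam1, which encodes CD31, had between 9 and 19 counts, and 10 of the 18 endothelial markers listed had fewer than 30 counts in every sample, with Sox17 at 0 throughout. The summed level of the endothelial list lay between 220 and 248 CPM in normal glucose and between 200 and 206 CPM in high glucose, and most of it came from Eng, at 155 ± 12.3 and 140 ± 3.48 CPM, and Flt1, at 55.3 ± 2.06 and 38.4 ± 0.153 CPM (SD, n = 3). Kdr had between 576 and 777 counts, Plvap between 586 and 833 and Egfl7 between 1113 and 1464. Of the 11 endothelial markers tested, Cdh5, Flt1 and Egfl7 were lower (log2 fold changes -1.03, -0.53 and -0.23) and Erg, Tek and Plvap higher (1.45, 0.66 and 0.44), and the calls of Egfl7 and Erg were lost with the replicate number as a block (edgeR adjusted P = 0.0666 and 0.0576). Eng, Erg and Tek are named after their values were seen. By contrast, all 15 fibroblast markers were tested and differed, 13 upward, and their summed level lay between 42000 and 45500 CPM in normal glucose and between 75700 and 80900 CPM in high glucose, with none of the 15 at 0. Col3a1, a fibrillar collagen, rose (log2 fold change 1.39, edgeR adjusted P = 1.43e-07), and S100a4 fell by 1.27 on the log2 scale (edgeR adjusted P = 3.83e-07). The summed levels of other cell types were far below those of the fibroblast list, at between 1090 and 1290 CPM for 11 mural cell markers, 31.8 and 36.1 CPM for 9 melanocyte and Schwann cell markers, 4.55 and 5.45 CPM for 10 keratinocyte markers, and 5.94 and 9.87 CPM for 8 macrophage markers, while the 7 myogenic markers reached at most 0.500 CPM. Of these, the mural, melanocyte and Schwann cell, and macrophage sums were lower in every high-glucose sample than in any normal-glucose sample. The single markers did not all fall. Of 10 mural markers tested, 5 were lower and 2 higher. Of 6 melanocyte and Schwann cell markers tested, 3 were lower and 1 higher. Of 6 macrophage markers tested, 3 were lower and the other 3 did not pass. The marker levels differed between the same groups as the genes below, and their part in those differences was not tested. In bulk samples, fewer cells of a type and less RNA per cell cannot be told apart.

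High glucose was accompanied by lower levels of 4 of the 10 genes, Hmga2, Hmga1, Twist2 and Snai2, and by higher levels of 2, Zeb2 and Twist1, while Snai1, Zeb1, Prrx1 and Prrx2 did not pass the test. The quasi-likelihood test of edgeR was run over all 19015 tested genes, and a gene was called where its Benjamini-Hochberg adjusted P value was under 0.05. Of the tested genes, 14.5% were called lower, 16.9% higher and 31.4% in either direction. All 10 genes passed the filter on low counts, with between 1585 and 65455 counts per sample. The median log2 fold change of the 10 genes was -0.00086, beside 0.0062 over all tested genes. In 7 of the 10 genes the samples of the groups did not overlap, and 46.4% of all tested genes had no overlap. With 3 samples against 3, a two-sided exact permutation test of a single gene cannot go below P = 0.1. Groups without overlap always reach that value, as these 7 genes did, so it restates the missing overlap.

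**Figure D1:**
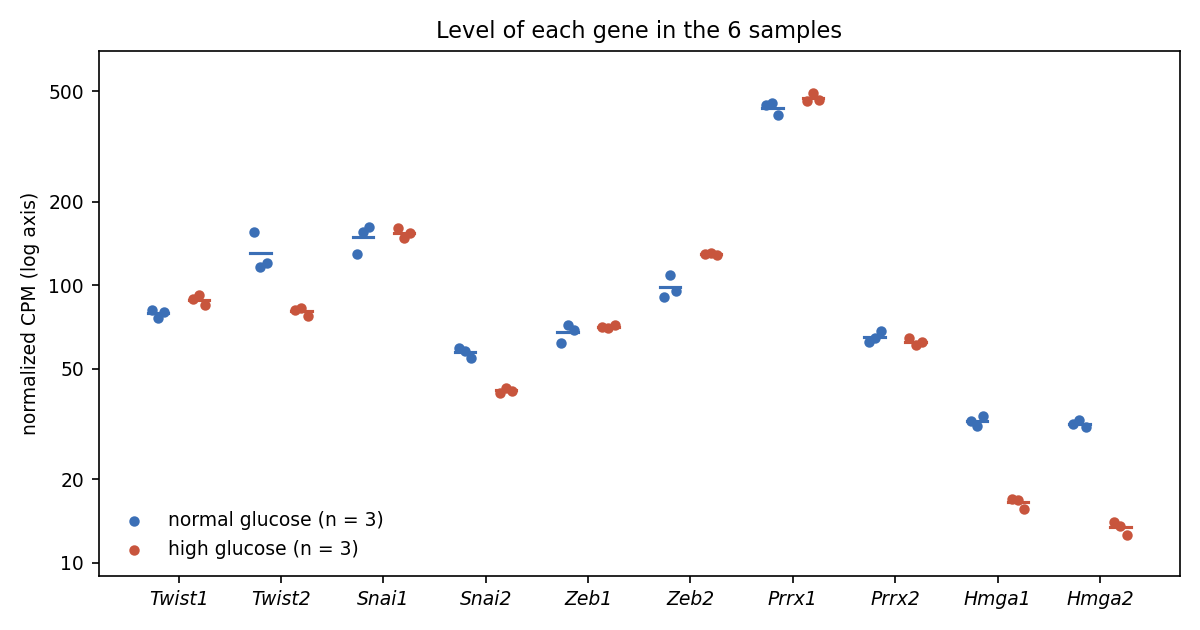
Normalized CPM (vertical, log axis) of the 10 genes in each sample, with blue points for the 3 normal-glucose samples, red points for the 3 high-glucose samples and a bar at each group mean. Hmga1 and Hmga2 sit between 31.0 and 33.8 CPM in normal glucose and between 12.6 and 17.0 CPM in high glucose, while the groups overlap for Snai1, Zeb1 and Prrx2.

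Hmga2, a chromatin protein of embryonic and transformed cells, changed most among the 10 genes. It had 31.6, 32.7 and 31.0 CPM in normal glucose and 14.1, 13.6 and 12.6 CPM in high glucose. Every high-glucose sample lay below every normal-glucose sample, and the level fell by 57.7% on the fitted scale, a log2 fold change of -1.24 (SE 0.059, 95% interval -1.37 to -1.11, edgeR adjusted P = 2.34e-07). Of the 2757 genes called lower, 304 fell further. Hmga2 lies on the minus strand at chr10:120361275-120476469 (GRCm38), and its exons share 140 bases with the antisense gene 1700006J14Rik, which had no more than 23 counts in any sample.

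Hmga1, the paralogue that is more widely expressed in dividing cells, fell by 49.2%. Its level was 32.6, 31.2 and 33.8 CPM in normal glucose and 17.0, 16.9 and 15.6 CPM in high glucose, again with no overlap. The log2 fold change was -0.98 (SE 0.058, 95% interval -1.11 to -0.85, edgeR adjusted P = 1.02e-06), and 581 of the genes called lower fell further. The calls of Hmga1 and Hmga2 held in all 20 alternative settings, with log2 fold changes between -1.09 and -0.85 for Hmga1 and between -1.36 and -1.10 for Hmga2. The smallest falls, -0.85 and -1.10, came when counts of copies and overlapping genes were added. These included AI413582, which shares 102 exonic bases with Hmga1 on the opposite strand (log2 fold change -0.32). For Hmga2 they included the pseudogene Gm38158, which shares some 75-base stretches with it (-0.29).

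The Hmga1 count cannot be read alone, because the annotation also holds Hmga1b, a protein-coding copy at chr11:120762794-120764419 on the plus strand, while Hmga1 itself lies on the plus strand at chr17:27556497-27563674 (GRCm38). The 321 coding bases of Hmga1b and of the longer Hmga1 form had 0 mismatches, and 46.9% of the 75-base stretches in Hmga1 transcripts also occurred in Hmga1b, so that a read of that length there has no unique origin. Coding bases 1 to 180, which are the same in both genes, are shown because they carry this ambiguity. Capitals mark the 33 bases that the shorter, 288-base Hmga1 form lacks. The marked stretch could equally lie 1 base later, since its first base and the base after it are both G.
Hmga1 and Hmga1b: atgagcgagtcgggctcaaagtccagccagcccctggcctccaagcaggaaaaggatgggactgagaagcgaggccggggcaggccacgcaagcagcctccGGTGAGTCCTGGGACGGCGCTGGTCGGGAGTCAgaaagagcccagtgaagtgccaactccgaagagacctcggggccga
Hmga1b had 28.3, 28.4 and 29.8 CPM in normal glucose and 14.3 CPM in every high-glucose sample, which was a log2 fold change of -1.01 (SE 0.052, edgeR adjusted P = 3.83e-07). The log2 ratio of Hmga1 to Hmga1b counts was 0.17 ± 0.035 in the normal-glucose group and 0.21 ± 0.065 in the other (SD, n = 3), a difference within the spread of the samples (exact permutation P = 0.6). Summed, both entries had 61.4 ± 2.02 CPM in the normal-glucose group against 30.8 ± 0.787 CPM with high glucose (SD, n = 3), and the summed count gave a log2 fold change of -0.99 (edgeR adjusted P = 4.32e-07).

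Binding sites for microRNAs are a known feature of these genes, since let-7 represses Hmga2 through its 3′ untranslated region (UTR) and the miR-200 family represses Zeb1 and Zeb2. MicroRNAs were not measured in these samples, so the matches below describe the transcripts only. The mature RefSeq sequences of the miRNAs are given first, with the seed (bases 2 to 8) in capitals.
mmu-let-7a-5p: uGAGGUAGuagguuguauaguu
mmu-miR-200b-3p: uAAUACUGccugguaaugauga
The let-7 seed, shared by 11 mature miRNAs of the table, is matched by CTACCTC, which occurred in 9.88% of the longest 3′ UTRs of 21033 genes. Hmga2 held 4 matches, Snai1 held 2, Hmga1 and Prrx1 held 1 each, and the other members held none. The matches of both Hmga genes are shown with 15 bases before and 1 base after them, and capitals mark the match.
Hmga2, 3′ UTR base 58: gccgacattcaatttCTACCTCa
Hmga2, 3′ UTR base 1295: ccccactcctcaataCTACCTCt
Hmga2, 3′ UTR base 1733: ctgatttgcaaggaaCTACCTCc
Hmga2, 3′ UTR base 2591: aatcaaaacacactaCTACCTCt
Hmga1, 3′ UTR base 801: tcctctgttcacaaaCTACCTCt
The miR-200b seed, shared by 3 mature miRNAs, is matched by CAGTATT, which occurred in 13.7% of those UTRs. Zeb1 and Zeb2 held 5 matches each, and Snai1, Snai2 and Hmga1 held 1 each. The Zeb2 matches are shown in the same way.
Zeb2, 3′ UTR base 393: cgcactaccatacatCAGTATTt
Zeb2, 3′ UTR base 458: cgcactacagtgcatCAGTATTa
Zeb2, 3′ UTR base 820: ttgaagcacccgtgtCAGTATTa
Zeb2, 3′ UTR base 905: gttcattaattttgtCAGTATTa
Zeb2, 3′ UTR base 1039: tcatactgtagtgtaCAGTATTa
Lin28a and Lin28b, which encode inhibitors of let-7 maturation, had at most 2 counts and 0 counts in any sample.

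Twist2, a bHLH factor of dermal and bone precursors, was the third of the genes that fell. Its level was 155, 116 and 121 CPM in normal glucose and 81.2, 83.2 and 77.4 CPM in high glucose. All high-glucose samples lay below the lowest normal-glucose sample, and the first normal-glucose sample stood above the others of its group, which gave a coefficient of variation of 16.4% in normal glucose against 3.64% in high glucose. The log2 fold change was -0.70 (SE 0.098, 95% interval -0.91 to -0.48, edgeR adjusted P = 3.94e-04), so that the level fell by 38.3%, and 954 of the genes called lower fell further. Without the first normal-glucose sample it was -0.57, and the gene was called in all 20 alternative settings.

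Twist2 occupies chr1:91801461-91848028 on the plus strand (GRCm38), and the antisense gene Gm29100 lies across its first exon at chr1:91798528-91802937 on the minus strand. They share 1477 exonic bases, 46.5% of the exonic bases of Twist2 and all of its 480 coding bases. The sources used here do not state whether strand was used in counting, and without strand reads from these genes cannot be told apart. Gm29100 had 3.45, 27.6 and 31.1 CPM in normal glucose and 2.26, 2.29 and 1.94 CPM in high glucose. Thus the normal-glucose sample with the most Twist2 had by far the least Gm29100 of its group. Their sum was 159, 144 and 152 CPM in normal glucose and 83.5, 85.5 and 79.4 CPM in high glucose, with a coefficient of variation of 4.96% in normal glucose, and its log2 fold change was -0.87 (SE 0.057, edgeR adjusted P = 1.89e-06).

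**Figure D2:**
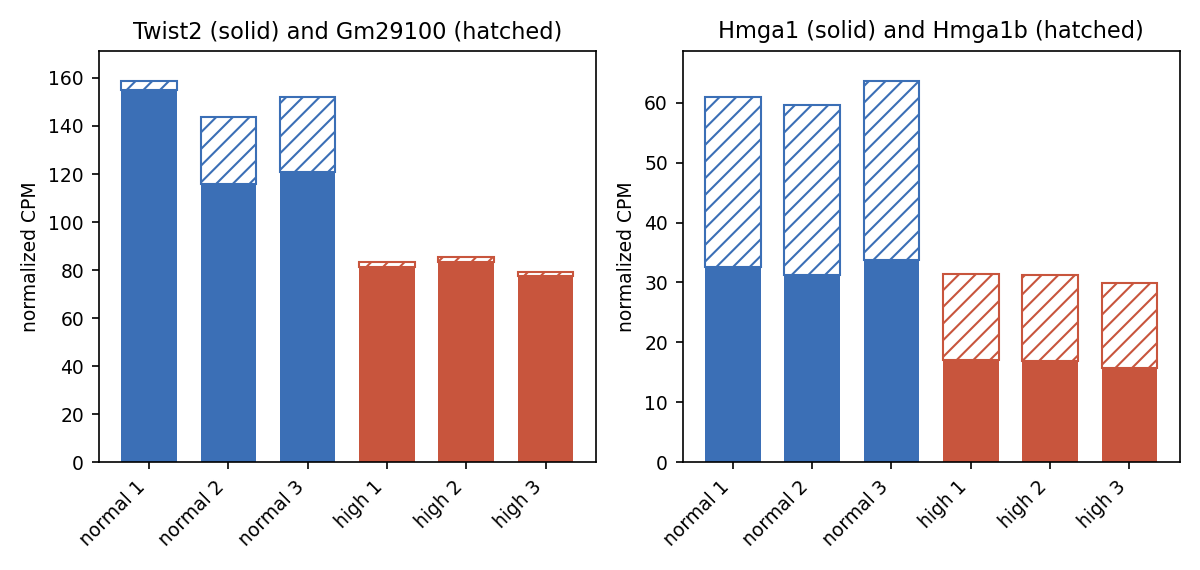
Normalized CPM (vertical) in each of the 6 samples (horizontal; blue normal glucose, red high glucose) of Twist2 with Gm29100 stacked on it, left, and of Hmga1 with Hmga1b stacked on it, right. The first normal-glucose bar holds 3.45 CPM of Gm29100 against 27.6 and 31.1 CPM in the others of its group, while the stacked heights of the 3 samples lie between 144 and 159 CPM.

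Twist1, the paralogue studied most in epithelial-to-mesenchymal transition, moved the other way by a small amount. It had 81.6, 76.3 and 80.2 CPM in normal glucose and 89.0, 92.7 and 84.9 CPM in high glucose, with no overlap between groups. The log2 fold change was 0.16 (SE 0.054, 95% interval 0.042 to 0.28, edgeR adjusted P = 0.0438), which is 12.0% higher, and 3154 of the 3212 genes called higher rose more. The call passed in 8 of the 20 alternative settings, and it was lost with the replicate number as a block (log2 fold change 0.16, edgeR adjusted P = 0.0787) and when any of the samples other than the first normal-glucose sample was left out. Over all fits without 1 sample, log2 fold changes lay between 0.12 and 0.18 and edgeR adjusted P values between 0.0321 and 0.201. The lowest of these P values came without the first normal-glucose sample, where the call held. Twist1 is a short gene at chr12:33957671-33959829 on the plus strand, with no exon shared with another gene.

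Snai2, which encodes the Snail repressor called Slug, fell by 27.1%. Its level was 59.4, 58.1 and 54.6 CPM in normal glucose and 40.9, 42.8 and 41.8 CPM in high glucose, and the groups stood well apart. The log2 fold change was -0.46 (SE 0.053, 95% interval -0.57 to -0.34, edgeR adjusted P = 1.12e-04), and 1488 of the genes called lower fell further. Snai2 lies at chr16:14705852-14709385 on the plus strand and was called in all 20 alternative settings, with log2 fold changes between -0.57 and -0.37.

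Snai1, which encodes Snail itself, had 129, 155 and 162 CPM in normal glucose and 161, 148 and 154 CPM in high glucose. The groups overlapped, with the first normal-glucose sample lowest of all, and the log2 fold change of 0.055 (SE 0.080, 95% interval -0.12 to 0.23, edgeR adjusted P = 0.648) did not pass the test. Without that sample the log2 fold change was -0.055. Of the relatives outside the 10 genes, Snai3 had at most 2 counts in any sample, Scrt2 at most 11, and Scrt1 had between 49 and 83 counts with a log2 fold change of -0.23 (edgeR adjusted P = 0.366).

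The E-box read by Snail and Zeb proteins was searched on both strands, as CACCTG or CAGGTG, in the RefSeq promoter windows of 250 bases before to 50 bases after each start (GRCm38.p6). Of the 10 genes, 8 had an entry, with 12 entries in all, and Snai1 was the single gene with a match, beside 20.2% of all 32851 promoter windows. The broader form CANNTG, which includes both, was in 72.3% of all windows and, among these genes, in those of Snai1 and Hmga1. The windows of both are shown because they hold the matches, which are in capitals. A match is a description of letters and not a site of binding.
Snai1, chr2:167537945-167538244, plus strand: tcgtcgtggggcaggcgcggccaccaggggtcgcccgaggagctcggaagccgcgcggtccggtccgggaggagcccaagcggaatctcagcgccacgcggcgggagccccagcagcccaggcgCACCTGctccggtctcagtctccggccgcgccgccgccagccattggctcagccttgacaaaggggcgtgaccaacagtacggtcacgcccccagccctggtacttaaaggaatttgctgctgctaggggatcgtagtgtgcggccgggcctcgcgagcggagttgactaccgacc
Hmga1, chr17:27556324-27556623, plus strand: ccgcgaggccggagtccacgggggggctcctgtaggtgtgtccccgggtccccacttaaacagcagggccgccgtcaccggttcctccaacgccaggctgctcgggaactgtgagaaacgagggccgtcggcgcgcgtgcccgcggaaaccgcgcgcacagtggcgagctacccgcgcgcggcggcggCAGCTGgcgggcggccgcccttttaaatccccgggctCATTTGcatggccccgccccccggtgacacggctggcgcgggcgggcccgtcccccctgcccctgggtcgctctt
The first base of the match in Snai1 lay at -126 from the start, and those in this Hmga1 window lay at -62 and -25.

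Prrx1 and Prrx2 are homeobox factors of limb, craniofacial and dermal mesenchyme. Prrx1 had the most counts of the 10 genes, with 447, 452 and 411 CPM in normal glucose and 461, 492 and 464 CPM in high glucose. The groups did not overlap, but the log2 fold change of 0.11 (SE 0.056, 95% interval -0.013 to 0.24, edgeR adjusted P = 0.157) did not pass the test. Prrx2 had 62.3, 64.4 and 68.6 CPM in normal glucose and 64.5, 60.9 and 62.4 CPM in high glucose, with overlap and a log2 fold change of -0.056 (SE 0.055, 95% interval -0.18 to 0.066, edgeR adjusted P = 0.475). Prrx1 lies on the minus strand at chr1:163245119-163313710 and Prrx2 on the plus strand at chr2:30834972-30881251. With scaling by library size alone, which put the median over all genes at -0.11 on the log2 scale, the log2 fold changes were -0.0028 for Prrx1 and -0.17 for Prrx2, the latter then called (edgeR adjusted P = 0.0327).

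Zeb2, a zinc-finger and homeodomain repressor, rose by 31.5%. Its level was 91.1, 109 and 95.1 CPM in normal glucose and 129, 130 and 129 CPM in high glucose, where the samples lay close together and above all those in normal glucose. The log2 fold change was 0.40 (SE 0.068, 95% interval 0.24 to 0.55, edgeR adjusted P = 0.00143), and 1525 of the genes called higher rose more. The call held in all 20 alternative settings, with log2 fold changes between 0.27 and 0.46. The lowest came with the trend on GC content and length removed. The antisense gene Zeb2os shares 653 exonic bases with Zeb2 and had a log2 fold change of 0.030 (edgeR adjusted P = 0.908). Its paralogue Zeb1 had 62.0, 71.9 and 69.1 CPM in normal glucose and 70.7, 70.1 and 71.8 CPM in high glucose. The groups overlapped, and the log2 fold change of 0.067 (SE 0.061, 95% interval -0.070 to 0.20, edgeR adjusted P = 0.448) did not pass the test and was -0.011 without the first normal-glucose sample. Zeb2 lies at chr2:44983632-45117395 on the minus strand and Zeb1 at chr18:5591860-5775467 on the plus strand.

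**Figure D3:**
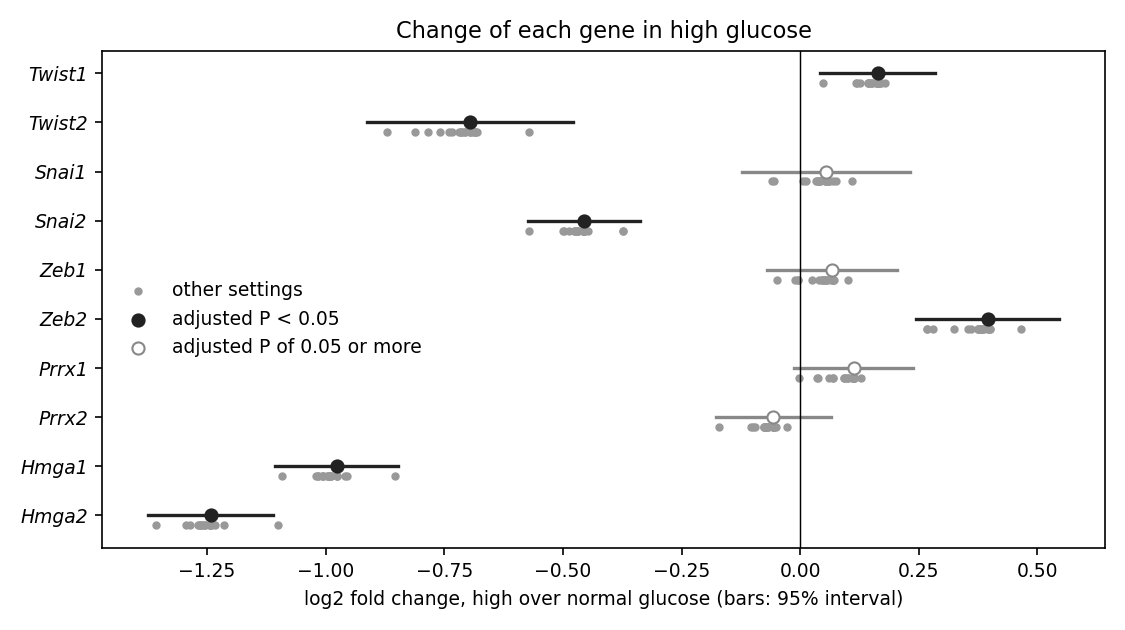
Log2 fold change of high over normal glucose (horizontal) for the 10 genes (vertical), with 95% intervals as bars, filled points where the adjusted P value was under 0.05, and small grey points for the 20 alternative settings. Hmga2, Hmga1, Twist2 and Snai2 sit left of 0 and Zeb2 right of 0 in every setting, whereas points of Snai1, Zeb1 and Prrx1 fall on both sides.

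The ratio of counts between paralogues within a sample does not depend on how the samples are scaled. It can depend on how shared reads were assigned, since the counts of Twist2 and Hmga1 here leave out Gm29100 and Hmga1b. The log2 ratio of Twist1 to Twist2 was -0.93, -0.60 and -0.59 in the normal-glucose samples against 0.13, 0.16 and 0.13 in the high-glucose samples, a difference of 0.85. That of Snai1 to Snai2 went from 1.37 ± 0.228 to 1.88 ± 0.0923, that of Zeb1 to Zeb2 from -0.54 ± 0.071 to -0.87 ± 0.027, and that of Hmga1 to Hmga2 from 0.033 ± 0.096 to 0.30 ± 0.021 (SD, n = 3). In these 4 families the groups did not overlap, which alone fixes the exact permutation test at P = 0.1, the smallest it allows, before any adjustment over the 5 ratios. The ratio of Prrx1 to Prrx2 went from 2.75 ± 0.142 to 2.92 ± 0.0891 with overlap (SD, n = 3, exact permutation P = 0.2).

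**Figure D4:**
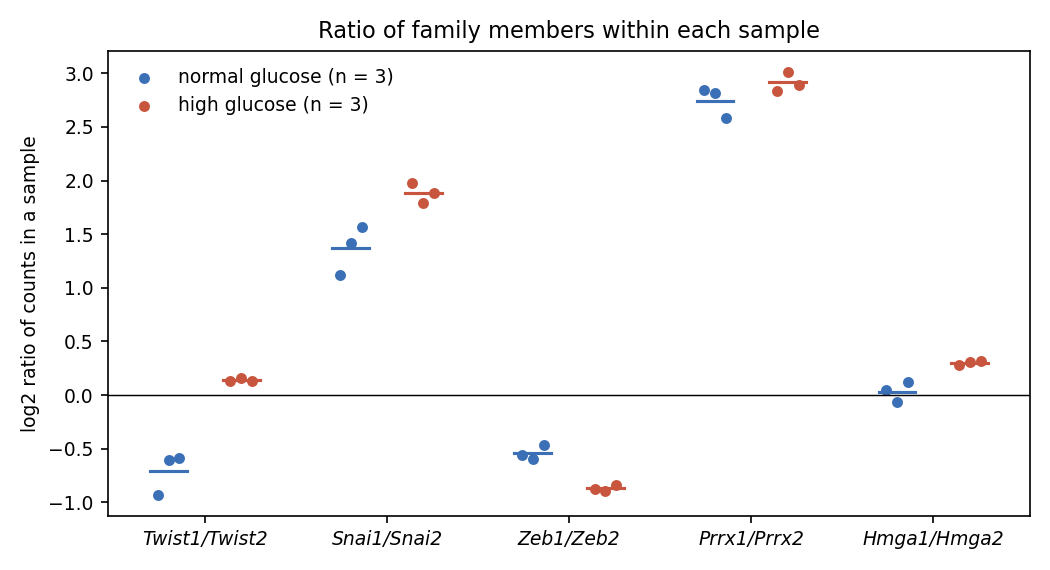
Log2 ratio of the counts of paralogues within each sample (vertical) for the 5 families (horizontal), with blue points for normal glucose, red points for high glucose and a bar at each group mean. The ratio of Twist1 to Twist2 lies below 0 in the 3 normal-glucose samples and above 0 in the 3 high-glucose samples.

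Per kilobase of exon, the order of the levels in normal glucose was Snai1 (91.8 ± 10.6 CPM per kilobase), Twist1 (48.7 ± 1.66), Twist2 (41.2 ± 6.73), Prrx1 (39.5 ± 2.03), Prrx2 (33.2 ± 1.63), Snai2 (28.4 ± 1.24), Hmga1 (15.3 ± 0.610), Zeb1 (6.59 ± 0.499), Zeb2 (4.94 ± 0.474) and Hmga2 (4.69 ± 0.126, SD, n = 3 for each). The samples of Twist1 and Twist2, of Twist2 and Prrx1, and of Zeb2 and Hmga2 overlapped, so these neighbours do not differ beyond their spread. In high glucose Twist2, at 25.4 ± 0.924 CPM per kilobase, stood below Prrx1 at 42.7 ± 1.53 and Prrx2 at 31.9 ± 0.912 (SD, n = 3), and no sample of it overlapped theirs. Hmga2 remained last, at 1.98 ± 0.112 CPM per kilobase (SD, n = 3). With the length of the longest transcript in place of all exons, Prrx1 ranked above both Twist genes in normal glucose. In high glucose Hmga1 then ranked 9 in place of 7. The levels of Hmga1 and Twist2 leave out Hmga1b and Gm29100, so their places depend on how shared reads were assigned.

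Twist proteins act as dimers with E proteins, and the Id proteins compete for these partners. Of 13 listed genes for E proteins, Id proteins and other bHLH factors, 9 were tested, 3 were lower and 2 higher, with a median log2 fold change of -0.091. With library size scaling 4 were lower and 1 higher, and with the replicate block 2 were lower and 1 higher. On the log2 scale, Id1 fell by 1.70 (edgeR adjusted P = 4.05e-07), Id4 fell by 1.10 (edgeR adjusted P = 3.21e-05) and Id3 fell by 0.17 (edgeR adjusted P = 0.0451), a call that the block removed (edgeR adjusted P = 0.0628). Id2 did not pass the test (log2 fold change -0.091, edgeR adjusted P = 0.304). Among the E proteins, Tcf3 rose by 0.17 on the log2 scale (edgeR adjusted P = 0.0302, or 0.0615 with the block and 0.422 with library size scaling), while Tcf4 and Tcf12, with log2 fold changes of -0.044 and 0.049, did not pass it (edgeR adjusted P = 0.612 and 0.715). The other gene called higher, Hand2, had between 11 and 35 counts per sample and is named after its values were seen.

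Transforming growth factor β (TGF-β) signaling is a main input to Snail, Zeb and Twist genes. Of its 16 listed genes, 9 were higher and 2 lower, with a median log2 fold change of 0.17. The ligand Tgfb2 rose by 1.31 (edgeR adjusted P = 6.40e-07) and the type I receptor Acvrl1 by 0.52 (edgeR adjusted P = 2.37e-05) on the log2 scale, and the inhibitory Smad7 fell by 0.59 (edgeR adjusted P = 2.31e-05). With scaling by library size alone 3 were higher and 4 lower. Snail and Zeb proteins recruit chromatin corepressors. Of 13 such genes, 3 were higher, Rcor1, Ctbp2 and Sin3a, with log2 fold changes of 0.25, 0.22 and 0.16 (edgeR adjusted P = 0.0095, 0.00837 and 0.0425), and 1 was lower, beside the 31.4% of all tested genes called in either direction. With library size scaling 2 were lower and the other 11 did not pass, and with the replicate block Rcor1 and Ctbp2 alone were called (edgeR adjusted P = 0.0194 and 0.0189). Of 12 genes for the turnover or control of Snail protein, 2 were lower, the kinase Pak1 (log2 fold change -0.35, edgeR adjusted P = 8.12e-04) and the signalosome subunit Cops2 (-0.28, edgeR adjusted P = 0.0151), and the other 10 did not pass, while with library size scaling 4 were lower.

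The genes on which these factors act did not move as 1 group. Of 16 epithelial genes, 10 had fewer than 30 counts in every sample, among them Cdh1 with at most 3 counts and Epcam with at most 12. Of the 8 tested, 4 were lower and 4 did not pass, and the lower ones, named after their values were seen, were Ocln, Cldn1, Cldn3 and Esrp2, with at most 108 counts in any sample. The call of Esrp2 (edgeR adjusted P = 0.0471) was lost with the replicate block (edgeR adjusted P = 0.0920), and library size scaling gave 5 lower. Of 14 mesenchymal effectors, 5 were higher and 4 lower, with a median log2 fold change of 0.14, whereas with library size scaling 3 were higher and 5 lower, with a median of 0.022. The matrix metalloproteinase Mmp3 fell by 0.97 (edgeR adjusted P = 3.91e-06) and the intermediate filament vimentin, encoded by Vim, by 0.50 (edgeR adjusted P = 5.03e-05) on the log2 scale, and the matrix protein tenascin C, encoded by Tnc, rose by 0.49 (edgeR adjusted P = 1.56e-04).

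Other factors of the mesenchymal transition were also split. Of 13 tested, 4 were higher and 2 lower, whereas with library size scaling 2 were higher and 3 lower. The Kruppel-like factor Klf4 fell by 0.72 on the log2 scale (edgeR adjusted P = 5.04e-06), and the forkhead gene Foxc1 rose by 0.36 (edgeR adjusted P = 5.43e-04). Of 8 tested homeobox relatives of Prrx1, Msx1 rose by 0.65 (edgeR adjusted P = 0.00258) and Meox1 fell by 0.89 on the log2 scale (edgeR adjusted P = 7.14e-05), and the other 6 did not pass the test, while library size scaling gave 2 lower and 1 higher.

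Around the Hmga genes, a list of 15 let-7 pathway, chromatin and cell-cycle genes had 13 tested members, 3 lower and 3 higher, with a median log2 fold change of -0.013. With library size scaling 4 were lower and 1 higher, and with the replicate block 4 were lower and 3 higher. Ccna2, a cyclin of dividing cells and a target of Hmga2, went from 3073, 3329 and 3035 counts in normal glucose to 1487, 1254 and 1369 counts in high glucose. Its log2 fold change was -1.19 (edgeR adjusted P = 2.39e-07). The high-mobility-group gene Hmgb2 fell by 0.44 (edgeR adjusted P = 0.0183), and Plag1, an Hmga2 target that encodes a zinc-finger factor, rose by 0.52 on the log2 scale (edgeR adjusted P = 0.0156). The other DNA-bending and nucleosome-binding genes of the list, Hmgb1, Hmgn1 and Hmgn2, did not pass the test, with log2 fold changes of -0.013, -0.0096 and -0.048 (edgeR adjusted P = 0.924, 0.928 and 0.766). They are named after their values were seen.

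**Figure D5:**
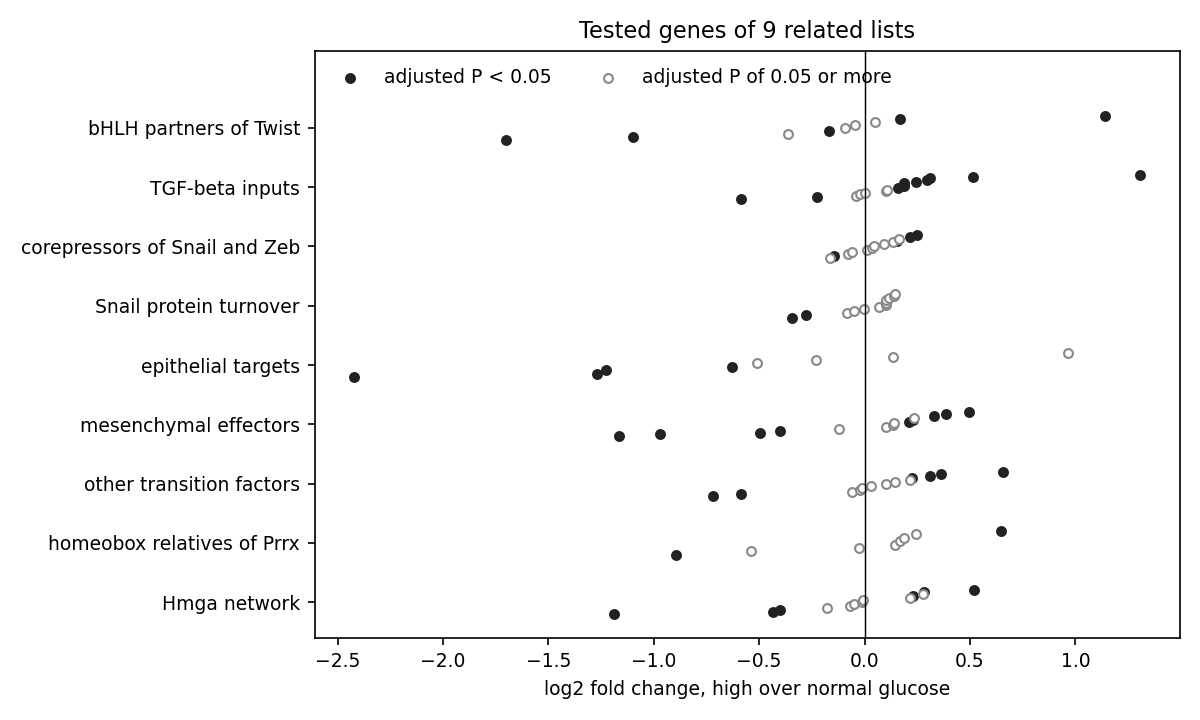
Log2 fold change of high over normal glucose (horizontal) for each tested gene of 9 related lists (vertical), with filled points where the adjusted P value was under 0.05 and open points otherwise. The lists hold genes on both sides of 0, with Id1 at -1.70 in the list of bHLH partners and Tgfb2 at 1.31 in the list of TGF-β inputs.

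Among 10002 well-expressed genes outside the list, those with the highest Pearson correlation to the called genes over the 6 samples were Nek2 for Hmga1 (r = 0.9996), Gpr149 for Hmga2 (0.999), Gm6560 for Twist2 (0.999), Nqo2 for Snai2 (0.999), Atp8b1 for Zeb2 (0.998) and Rcc1l for Twist1 (0.988). The 6 points comprise both groups, so genes that differ between them by far more than their spread within a group correlate strongly. This holds whatever the size of the change, and the values are given as a description.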

How the data were processed

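PolyA RNA of 3 normal-glucose and 3 high-glucose samples was analysed, with groups and replicate numbers taken from the sample labels. Per the labels and the paper, the authors used Trimmomatic for trimming, HISAT2 for alignment to GRCm38 and StringTie for enumerating reads per gene, and they deposited whole-number counts without normalization. The paper gives a read length of 75 on an Illumina HiSeq, whereas the labels name DNBSeq. Strand use and tool versions are not given in the sources used here. Counts were filtered (filterByExpr, minimum count 10, minimum total 15), scaled by TMM and compared with edgeR 4.0.16 in R 4.3.3 by the quasi-likelihood test. Adjustment followed Benjamini and Hochberg over 19015 genes. The fit was tested on simulated data. The 10 genes and all related lists were chosen with earlier results of these data known.

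The named genes are the 10 genes, their relatives, copies and overlapping genes, up to 3 called genes per list with the largest absolute log2 fold change at a mean log2 CPM of at least 1, a fixed set of markers, Id genes and E proteins, and the most correlated gene for each called gene. A gene that this rule names is not reported here. Genes were placed with GENCODE M21 on GRCm38. The median of all genes and the depth bear on every value, and with 3 samples a group the spread is known only roughly. Alternatives were other scalings and filters, a likelihood ratio test, DESeq2 1.42.0, voom in limma 3.58.1, halved counts, a removed trend on GC content and length (mgcv 1.9.3), summed copies and overlapping genes, the replicate block and each sample left out. Adding Hmga1b alone to Hmga1 was chosen after seeing the data. DNA and miRNA sequences are from RefSeq and GENCODE.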

Additional observations from a re-analysis of the deposited data

How the results depend on the processing

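The falls of Hmga2, Hmga1, Twist2 and Snai2 and the rise of Zeb2 kept their direction and passed the threshold in all 20 alternatives. The call of Twist1 was lost with RLE normalization (log2 fold change 0.15), upper quartile normalization (0.12), library size scaling (0.048), no filter (0.14), a filter at 1 CPM (0.15) and halved counts (0.14), so that 1 gene was called higher in each of these. Leaving out 1 sample gave Twist1 0.12 to 0.18, and between 1 and 2 of the 10 genes called higher. Deviations of same-numbered samples correlated at -0.025, 0.0038 and 0.013, so no shared deviation over all genes followed the replicate numbers 1 to 3. These values do not show whether the samples were prepared in pairs. With the replicate number as a block, Twist1 was at 0.16 (edgeR adjusted P = 0.0787) and 1 gene was called higher, and the block changed no other call among the 10 genes. Among genes not called, library size scaling turned Snai1 to -0.060, Zeb1 to -0.049 and Prrx1 to -0.0028 and led to a call of Prrx2 at -0.17. Removing the GC and length trend turned Zeb1 to -0.0053, and to -0.0050 with the replicate block. Leaving out 1 sample gave Snai1 -0.055 to 0.11 and Zeb1 -0.011 to 0.10, both negative without normal-glucose sample 1. Over all genes, library size scaling gave 4884 lower and 1819 higher, and 72.9% of calls lower against 46.2%. Leaving out 1 sample gave between 1988 and 3149 higher, with 1988 without high-glucose sample 3 and 2010 without high-glucose sample 1. The causes were not tested. Of 64 recomputed counts of called genes in lists, 11 moved by over 1.5 times with library size scaling and 3 with the block, and 7 of the 10 levels per kilobase moved with the longest transcript length. No count limited these genes, the lowest being 1585.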
